A study of Bos taurus with 4 samples.

Results

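The genes described here encode components of the Wnt and fibroblast growth factor (FGF) signalling pathways in bovine (Bos taurus) embryos at the 8/16-cell stage. Members were chosen by gene symbol from a table of FPKM values (fragments scaled to transcript length and sequencing depth). They were the rows whose symbols begin with WNT, FZD, DVL, AXIN, DKK, SFRP, TCF7, LEF1, LRP5, LRP6, GSK3, FGF and a digit, FGFR, SPRY and a digit, DUSP or SPRED, together with APC and PORCN. This gave 80 rows for 79 genes among the 14517 rows of the table, with 2 rows for FGF1. The reference gene table holds 113 symbols that match the rule, and the 34 without a row, LRP5, LRP6 and DVL3 among them, were not analysed here. A match by symbol also takes in relatives that are not pathway components in the strict sense, such as FGFR1OP2, DKKL1 and the dual-specificity phosphatases that do not act mainly on MAP kinases. All embryos received siRNAs (small interfering RNAs) by injection as zygotes and were collected at day 3 after insemination. The control group (NC, n = 2 libraries) received negative control siRNAs. The knockdown group (KDM5_KD, n = 2 libraries) is titled as a Kdm5 knockdown, made with siRNAs against KDM5A, KDM5B and KDM5C together, which encode demethylases of lysine 4 of histone H3. The treatment entry of KDM5_KD replicate 2 instead names siRNAs against KDM6 genes, so some of the members that change without that library are also given without it. The labels do not say how many embryos each library holds or whether the libraries came from separate batches of embryos, so p-values measure only the spread between these libraries.

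Wnt ligands are lipid-modified by porcupine, bind Frizzled and LRP receptors, and act through Dishevelled to stop a destruction complex of AXIN, APC and GSK3 from removing beta-catenin, which then activates genes together with TCF and LEF factors. Secreted antagonists of the DKK and SFRP families limit this signal outside the cell. FGF ligands bind receptor tyrosine kinases that activate the RAS and ERK cascade, and the cascade is restrained by feedback inhibitors of the Sprouty, SPRED and dual-specificity phosphatase (DUSP) families. In mammalian blastocysts, FGF signalling is known for separating epiblast from hypoblast, and in cattle both pathways are manipulated when embryos or pluripotent cells are cultured. The embryos here were younger than that, in the period in which the bovine genome is activated.

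FPKM summed to between 283347 and 322267 per library. The siRNA targets were checked first, and KDM5B was not analysed here. KDM5A was at 28.4 and 27.1 FPKM in NC versus 10.5 and 10.1 FPKM in KDM5_KD, a log2 fold change of -1.35 with a limma adjusted p = 0.0333. KDM5C was at 28.1 and 40.6 FPKM in NC versus 15.1 and 17.8 FPKM in KDM5_KD (log2 fold change -0.999, limma adjusted p = 0.123). Without NC replicate 2, KDM5_KD replicate 1 or KDM5_KD replicate 2 the limma adjusted p of KDM5A was between 0.0625 and 0.232, and without NC replicate 1 that of KDM5C was 0.0265. Both were lower in each knockdown library, and KDM5_KD replicate 2 had about the same levels as KDM5_KD replicate 1. KDM6A, of the family named in the treatment entry of KDM5_KD replicate 2, was at 7.63 and 11.3 FPKM in NC versus 7.90 and 9.29 FPKM in KDM5_KD, so its groups overlapped. Of 30 listed markers of oocytes and early embryos, 16 had rows and every one of these rows was at 1 FPKM or more in all libraries, POU5F1 between 56.2 and 63.2 FPKM and GDF9 between 10.9 and 21.0 FPKM. These 17 rows summed to 657 and 535 FPKM in NC versus 766 and 849 FPKM in KDM5_KD. Their median log2 fold change was 0.41, against 0.09 for all transcripts tested, and 16 of them were above 0. Without overlap, 6 (35.3%) lay above NC and none below, against 35.1% and 15.6% of all transcripts tested. RNA of cumulus and granulosa cells, which surround the oocyte, would come from cells outside the embryo. The 30 of 31 listed markers of these cells with a row summed to 305 and 132 FPKM in NC and to 735 and 544 FPKM in KDM5_KD. Of the 22 tested, 19 (86.4%) lay above NC in both knockdown libraries, against 35.1% of all transcripts tested. Among the 19, INHA, GREM1, VCAN and COL1A2 reached the filter of a mean of 1 FPKM only through the knockdown group. Their NC means were 0.842, 0.572, 0.668 and 0.527 FPKM. IGFBP5, TIMP1 and VIM had the highest means and weigh most in these sums. IGFBP5 was at 89.7 and 31.0 FPKM in NC versus 266 and 149 FPKM in KDM5_KD. TIMP1 was at 78.9 and 17.5 FPKM in NC versus 186 and 127 FPKM in KDM5_KD. Hormone and steroid genes of granulosa cells were detected in every library, INHA at 1.20 and 0.489 FPKM in NC versus 3.67 and 2.91 FPKM in KDM5_KD, and CYP11A1 at 8.41 and 3.79 FPKM in NC versus 12.5 and 17.2 FPKM in KDM5_KD. The hormone gene AMH went the other way, at 2.77 and 1.12 FPKM in NC versus 1.28 and 0.957 FPKM in KDM5_KD. Its groups overlapped (log2 fold change -0.42). Of the 22 markers tested, 20 had a log2 fold change above 0 and 2, AMH and TNFAIP6, below. Among the gonadotropin receptors and aromatase, FSHR was listed at 0 in both NC libraries but at 0.0216 and 0.0443 FPKM in KDM5_KD, LHCGR was listed at 0 in all libraries but KDM5_KD replicate 2, at 0.0434 FPKM, and CYP19A1 did not exceed 0.0602 FPKM. In NC replicates 1 and 2, 19 and 16 of the listed markers were at 1 FPKM or more. In these bulk libraries, fewer cells of a type and less RNA per cell cannot be told apart.

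At the group level the Wnt and FGF genes resembled the transcriptome around them. Of the 80 rows, 52 had a mean of at least 1 FPKM and were tested (25 of the Wnt group and 27 of the FGF group), in a fit of log2(FPKM + 1) with limma over all 8970 such transcripts. No member passed a limma adjusted p of 0.05, a threshold that 0.279% of all transcripts tested passed (0.19% as higher and 0.0892% as lower). The lowest limma adjusted p of a member was 0.109, for SFRP2. Without adjustment, 10 of the 52 members (19.2%) had a limma p under 0.05, against 17.5% of all transcripts tested, and 8 of the 10 were higher and 2 lower in KDM5_KD. Both knockdown libraries lay above both NC libraries for 18 members (34.6%, against 35.1% of all transcripts tested) and below them for 8 (15.4%, against 15.6%). These shares are near the background. Without KDM5_KD replicate 2 no member passed either, and 6 (11.5%) had an unadjusted limma p under 0.05, against 8.58% of all transcripts. Of the 10 members just counted, 5 then kept an unadjusted limma p under 0.05 (SFRP2, FGFR1, WNT5B, FGF16 and DUSP6). Among the 18 members that lay above, NC replicate 1 exceeded NC replicate 2 in 11 (61.1%). It did so in 66.3% of all transcripts that lay above. NC replicate 1 was also the higher in both marker sums, of cumulus and granulosa cells and of oocytes and early embryos. A log2 fold change of at least 1 was reached by 2 members, SFRP2 and FGFR1, where 4.52% of all transcripts tested reached it, and no member was at -1 or below, where 0.301% of transcripts were.

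The median log2 fold change of the 52 members was 0.14, against 0.09 for all transcripts tested, and it was 0.23 in the Wnt group and -0.01 in the FGF group. The direction of such small values depended on scaling. The median over all transcripts shifted by -0.13 under median-ratio scaling and by -0.14 under quantile normalization. With median-ratio scaling 13 members lay above and 13 below, where 23.8% and 28.3% of all transcripts did. With quantile normalization 10 lay above and 16 below, where the shares of all transcripts were 20.9% and 28.1%. The members that remained above were all among the 18. With 2 libraries against 2, an exact permutation test of a single gene cannot go below a two-sided p of 0.333, so the tests rest on the variance shared across transcripts in limma.

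**Figure D1:**
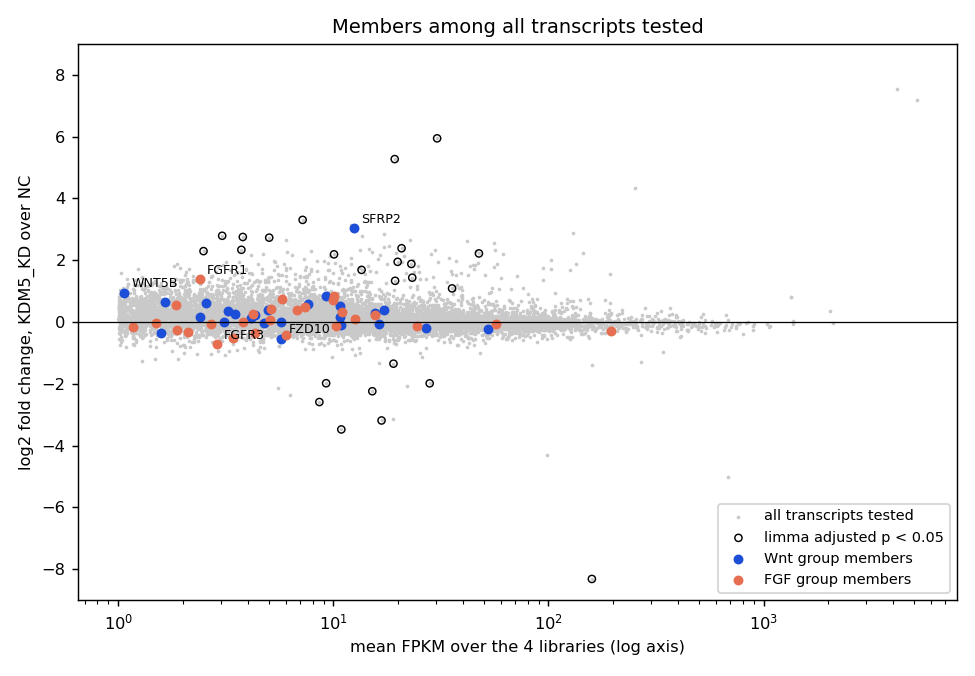
Log2 fold change (KDM5_KD over NC, log2(FPKM + 1) scale) against mean FPKM on a log axis for the 8970 transcripts tested (grey), those at a limma adjusted p under 0.05 (black rings), and the members of the Wnt (blue) and FGF (orange) groups. No member carries a black ring, and SFRP2 lies highest among them at 3.04.

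Members spanned a wide range of levels, with a median mean level of 5.41 FPKM among those tested, against 10.5 FPKM for all transcripts tested. DUSP1, a MAP kinase phosphatase made as an immediate early gene, was by far the most abundant, at 194 and 235 FPKM in NC and 164 and 189 FPKM in KDM5_KD. DUSP14, GSK3A, DKK1 and DUSP11 followed, with mean levels over the 4 libraries of 56.9, 52.1, 27.0 and 24.4 FPKM. Among the ligands, FGF16 had the highest mean, at 10.03 FPKM.

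**Figure D2:**
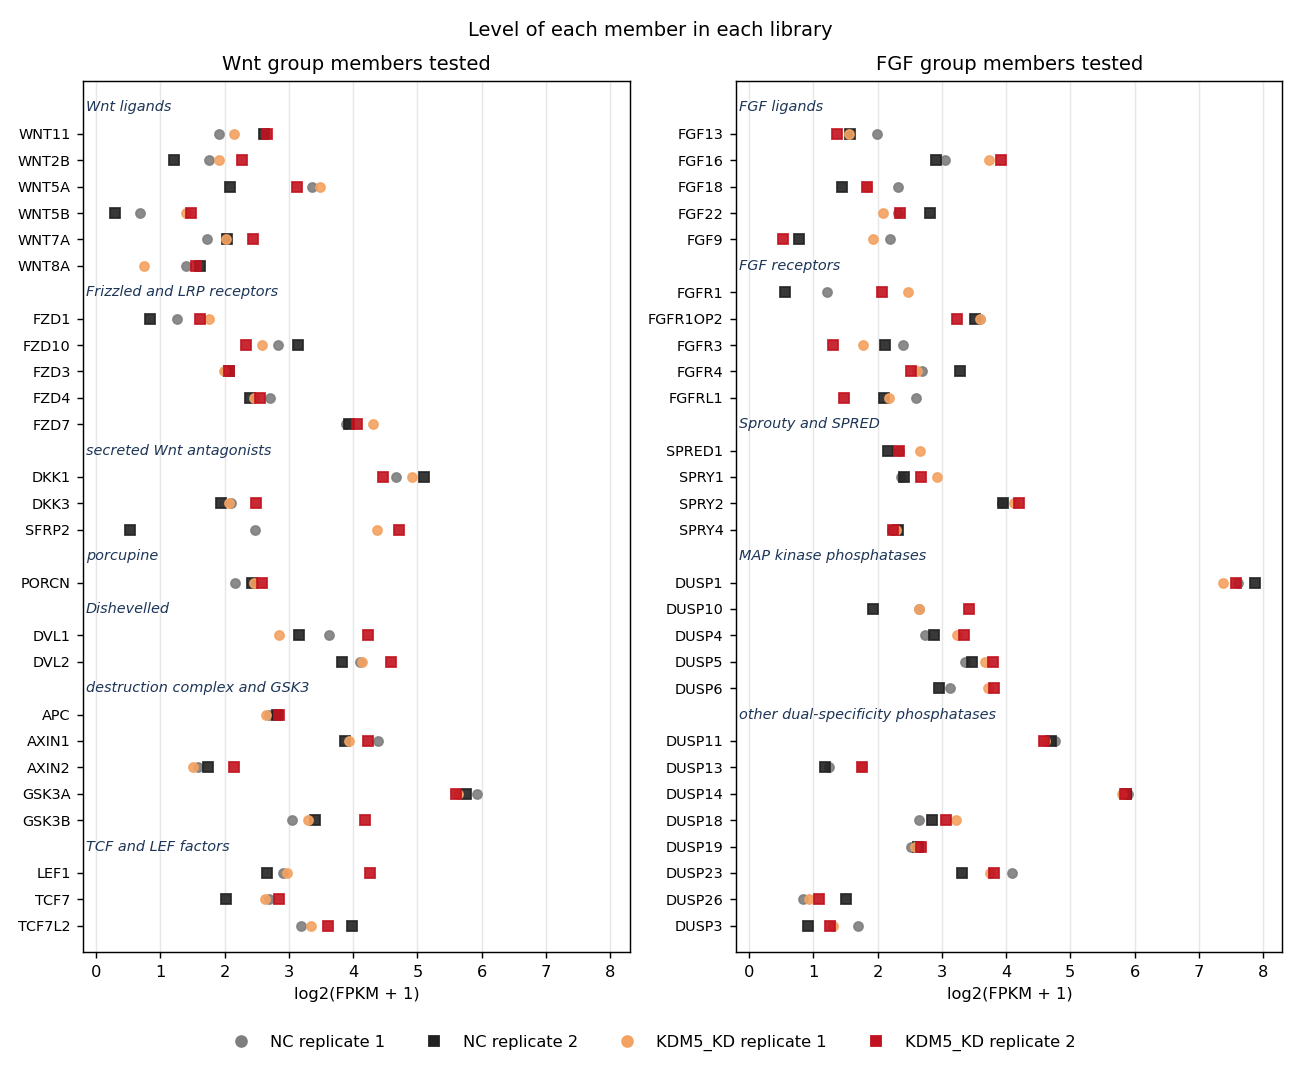
Level of each member tested in each library, as log2(FPKM + 1), grouped by role, for the Wnt group (left) and the FGF group (right). Grey and black points are the NC libraries and orange and red points the KDM5_KD libraries, and SFRP2 is the member whose libraries lie farthest apart.

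Among the Wnt ligands, WNT5A had the highest mean level. It signals mostly without beta-catenin, and was at 9.31 and 3.24 FPKM in NC versus 10.2 and 7.76 FPKM in KDM5_KD. NC replicate 1 lay between the knockdown libraries, so the groups overlapped (log2 fold change 0.58, standard error 0.420, limma adjusted p = 0.524). The paralog WNT5B was near the limit of the filter, at 0.606 and 0.225 FPKM in NC versus 1.64 and 1.78 FPKM in KDM5_KD. Both knockdown libraries were higher, at 4.11 times the NC mean. Its log2 fold change was 0.95 (standard error 0.228, unadjusted limma p of 0.00581, limma adjusted p = 0.142), and it reached the filter only through the knockdown group. WNT2B was at 2.39 and 1.32 FPKM in NC versus 2.76 and 3.82 FPKM in KDM5_KD (log2 fold change 0.60, limma adjusted p = 0.322). Its groups did not overlap. WNT11, WNT7A and WNT8A, with mean levels of 4.15, 3.22 and 1.58 FPKM, overlapped between groups, and their 95% intervals of the log2 fold change lay between -1.12 and 0.90. Of the 6 ligands tested, 2 lay above without overlap, where 35.1% of all transcripts did. PORCN, which encodes the acyltransferase that lipid-modifies Wnt proteins, was at 3.49 and 4.35 FPKM in NC versus 4.496 and 4.98 FPKM in KDM5_KD. Its log2 fold change of 0.23 (limma adjusted p = 0.614) turned to -0.04 with quantile normalization.

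The Frizzled genes, which encode the Wnt receptors, were led by FZD7. It was at 13.7 and 14.2 FPKM in NC versus 18.8 and 15.7 FPKM in KDM5_KD, a difference of 0.28 on the log2 scale (limma adjusted p = 0.423). FZD1 and FZD10 lay on opposite sides. FZD1 was at 1.39 and 0.786 FPKM in NC versus 2.38 and 2.05 FPKM in KDM5_KD (log2 fold change 0.64, standard error 0.234, limma adjusted p = 0.251). FZD10 was at 6.10 and 7.86 FPKM in NC versus 4.95 and 4.01 FPKM in KDM5_KD, with a log2 fold change of -0.54 (standard error 0.214, limma adjusted p = 0.278). For each of them the groups did not overlap and the unadjusted limma p was under 0.05 (0.0342 and 0.0453). Without KDM5_KD replicate 2 these p-values were 0.0764 and 0.199, and with quantile normalization the log2 fold change of FZD1 was 0.34 (unadjusted limma p of 0.171). FZD3 and FZD4, at mean levels of 3.10 and 4.77 FPKM, had log2 fold changes of -0.01 and -0.05 with 95% intervals from -0.48 to 0.46 and from -0.55 to 0.46. Differences within these bounds were not detectable with 2 libraries per group.

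Secreted Wnt antagonists held the member with the largest log2 fold change, SFRP2, which encodes a secreted Frizzled-related protein that binds Wnt ligands. It was at 4.57 and 0.440 FPKM in NC versus 19.6 and 25.3 FPKM in KDM5_KD. The NC libraries differed widely from each other, and both knockdown libraries lay above both of them. The group means were 2.51 ± 2.92 and 22.4 ± 4.01 FPKM (SD, n = 2), a ratio of 8.95. Its log2 fold change was 3.04 (standard error 0.596, 95% interval 1.58 to 4.49, unadjusted limma p of 0.00218, limma adjusted p = 0.109). The log2 fold change depended on the NC libraries. A fit without 1 of them assumes that the other varies like the knockdown libraries. Without NC replicate 1 the log2 fold change was 4.01, and without NC replicate 2 it was 2.06. Without KDM5_KD replicate 2 it was 2.86, with a limma adjusted p = 0.404. NC replicate 2 was lowest and NC replicate 1 next. This order held for the summed cumulus and granulosa markers (132 and 305 FPKM). It held as well for the summed oocyte and early embryo markers (535 and 657 FPKM). In KDM5_KD replicates 1 and 2 the oocyte and early embryo sum also had the order of SFRP2 (766 and 849 FPKM). The cumulus and granulosa sum had the opposite order there (735 FPKM in replicate 1 and 544 FPKM in replicate 2). Single cumulus and granulosa markers differed in this order. IGFBP5 was at 266 and 149 FPKM in KDM5_KD replicates 1 and 2, and VIM at 84.6 and 98.1 FPKM. The part of these markers in the result was not tested. DKK1, a secreted ligand of LRP receptors that blocks Wnt signalling, was the most abundant Wnt antagonist. It was at 24.3 and 33.2 FPKM in NC versus 29.2 and 21.1 FPKM in KDM5_KD, so the groups overlapped (log2 fold change -0.19, limma adjusted p = 0.716). DKK3 overlapped as well, between 2.84 and 4.62 FPKM over the libraries.

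**Figure D3:**
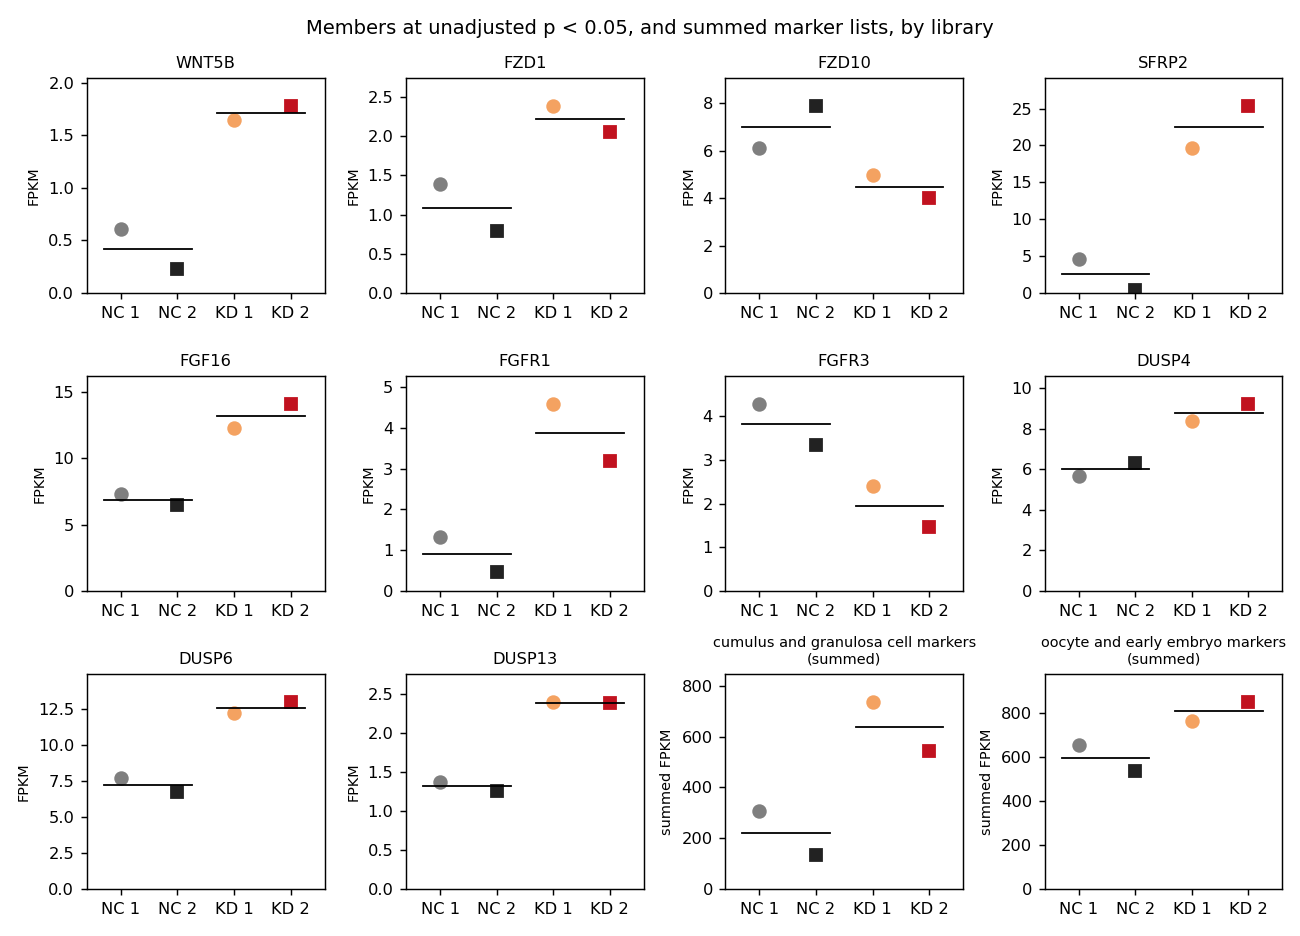
FPKM in each library of the 10 members with an unadjusted limma p under 0.05, with the summed FPKM of the cumulus and granulosa markers and of the oocyte and early embryo markers. Horizontal lines are group means, each of 2 libraries, and every vertical axis starts at 0. Groups do not overlap in any panel, and FZD10 and FGFR3 are the members with lower knockdown values.

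The intracellular Wnt components had smaller differences than SFRP2. GSK3A, a kinase of the destruction complex, was at 59.6 and 52.8 FPKM in NC versus 48.3 and 47.7 FPKM in KDM5_KD, lower in both knockdown libraries by 0.22 on the log2 scale (standard error 0.125, limma adjusted p = 0.420). Its paralog GSK3B was at 7.25 and 9.58 FPKM in NC versus 8.82 and 17.2 FPKM in KDM5_KD. Only KDM5_KD replicate 2 lay above both NC libraries, and the groups overlapped. APC and AXIN1, scaffolds of the same complex, had log2 fold changes of -0.01 and -0.05, with 95% intervals from -0.47 to 0.46 and from -0.59 to 0.50. AXIN2, a scaffold that is itself a common target of beta-catenin signalling, was low in all libraries, at 2.01 and 2.34 FPKM in NC versus 1.84 and 3.42 FPKM in KDM5_KD. Of the 5 members of this complex, GSK3A was the only one whose groups did not overlap. The Dishevelled gene DVL2 was at 16.3 and 13.1 FPKM in NC versus 16.6 and 23.1 FPKM in KDM5_KD (log2 fold change 0.40, limma adjusted p = 0.385). DVL1 had its extremes, 6.20 and 17.8 FPKM, in the 2 knockdown libraries, so its spread within that group exceeded the difference between groups. Without KDM5_KD replicate 2 the log2 fold changes of DVL1 and AXIN2 turned from 0.15 and 0.16 to -0.54 and -0.16.

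LEF1 and TCF7L2 lead the nuclear factors that beta-catenin binds. LEF1 was at 6.49 and 5.29 FPKM in NC versus 6.86 and 18.2 FPKM in KDM5_KD. Both knockdown values were above NC, but KDM5_KD replicate 1 only narrowly, and the log2 fold change of 0.84 (standard error 0.414, limma adjusted p = 0.358) came mostly from KDM5_KD replicate 2. That replicate also held the highest level of GSK3B, DVL1, DVL2 and AXIN2. TCF7L2 was at 8.14 and 14.8 FPKM in NC versus 9.19 and 11.2 FPKM in KDM5_KD, with both knockdown libraries between the NC libraries. TCF7 overlapped between groups, at 3.04 to 6.18 FPKM.

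The FGF ligands were few and mostly low. Of 18 rows, 5 were tested, and FGF4, the ligand that inner cells of the blastocyst make, was listed at 0 in all libraries, as was FGF6. FGF16, a secreted ligand of the FGF9 subfamily, was at 7.30 and 6.48 FPKM in NC versus 12.3 and 14.1 FPKM in KDM5_KD. Replicates were close and the groups did not overlap, with means of 6.89 ± 0.577 and 13.2 ± 1.27 FPKM (SD, n = 2), a ratio of 1.91. The log2 fold change was 0.84 (standard error 0.175, unadjusted limma p of 0.0029, limma adjusted p = 0.123). FGF9 itself differed more within groups than between them, at 3.56 and 0.719 FPKM in NC versus 2.80 and 0.434 FPKM in KDM5_KD. Replicate 1 was higher than replicate 2 in each group. Without KDM5_KD replicate 2 the log2 fold change of FGF9 turned from -0.26 to 0.44. FGF22, of the FGF7 subfamily, was at 3.99 and 6.04 FPKM in NC versus 3.25 and 4.07 FPKM in KDM5_KD. FGF18, of the FGF8 subfamily, was at 3.98 and 1.72 FPKM in NC versus 2.55 FPKM in each knockdown library. Both overlapped between groups. FGF13, an intracellular FGF homologous factor that does not signal through FGF receptors, lay lower in both knockdown libraries, at 2.97 and 1.98 FPKM in NC versus 1.94 and 1.59 FPKM in KDM5_KD (log2 fold change -0.32, limma adjusted p = 0.535).

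The FGF receptor genes lay on both sides of 0. FGFR1 was at 1.33 and 0.466 FPKM in NC versus 4.58 and 3.18 FPKM in KDM5_KD. Both knockdown libraries were higher, with means of 0.897 ± 0.609 and 3.88 ± 0.990 FPKM (SD, n = 2), a ratio of 4.32. Its log2 fold change was 1.39 (standard error 0.299, 95% interval 0.66 to 2.12, unadjusted limma p of 0.00349, limma adjusted p = 0.127). It reached the filter only through the knockdown group. Without NC replicate 1 it was 1.72 (limma adjusted p = 0.0403), in a setting where 323 rather than 17 of all transcripts were called higher, and without any other library it was between 1.05 and 1.59 (limma adjusted p = 0.245 to 0.373). NC replicate 2 was again lowest and NC replicate 1 next, as in both marker sums given beside SFRP2. The knockdown libraries had the order of the cumulus and granulosa sum. The part of these markers in the result was not tested. FGFR3 was at 4.28 and 3.35 FPKM in NC versus 2.40 and 1.47 FPKM in KDM5_KD, the lowest log2 fold change of any member tested (-0.73, standard error 0.248, unadjusted limma p of 0.0261, limma adjusted p = 0.226). Its groups did not overlap. Without KDM5_KD replicate 2 the log2 fold change of FGFR3 was -0.49 with an unadjusted limma p of 0.151. FGFR4 had the highest level of the signalling receptors, at 5.46 and 8.68 FPKM in NC versus 5.12 and 4.74 FPKM in KDM5_KD (log2 fold change -0.42, limma adjusted p = 0.441). FGFRL1, a receptor without a kinase domain, was at 5.03 and 3.27 FPKM in NC versus 3.54 and 1.79 FPKM in KDM5_KD, and its groups overlapped. In NC the order by mean FPKM was FGFR4, FGFR3, FGFR1 and FGFR2, and in KDM5_KD it was FGFR4, FGFR1, FGFR3 and FGFR2. FGFR2, at 0.464 to 0.834 FPKM, was too low to be tested. FGFR1OP2, whose product is no FGF receptor, was at 11.1 and 10.4 FPKM in NC versus 11.1 and 8.46 FPKM in KDM5_KD.

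**Figure D4:**
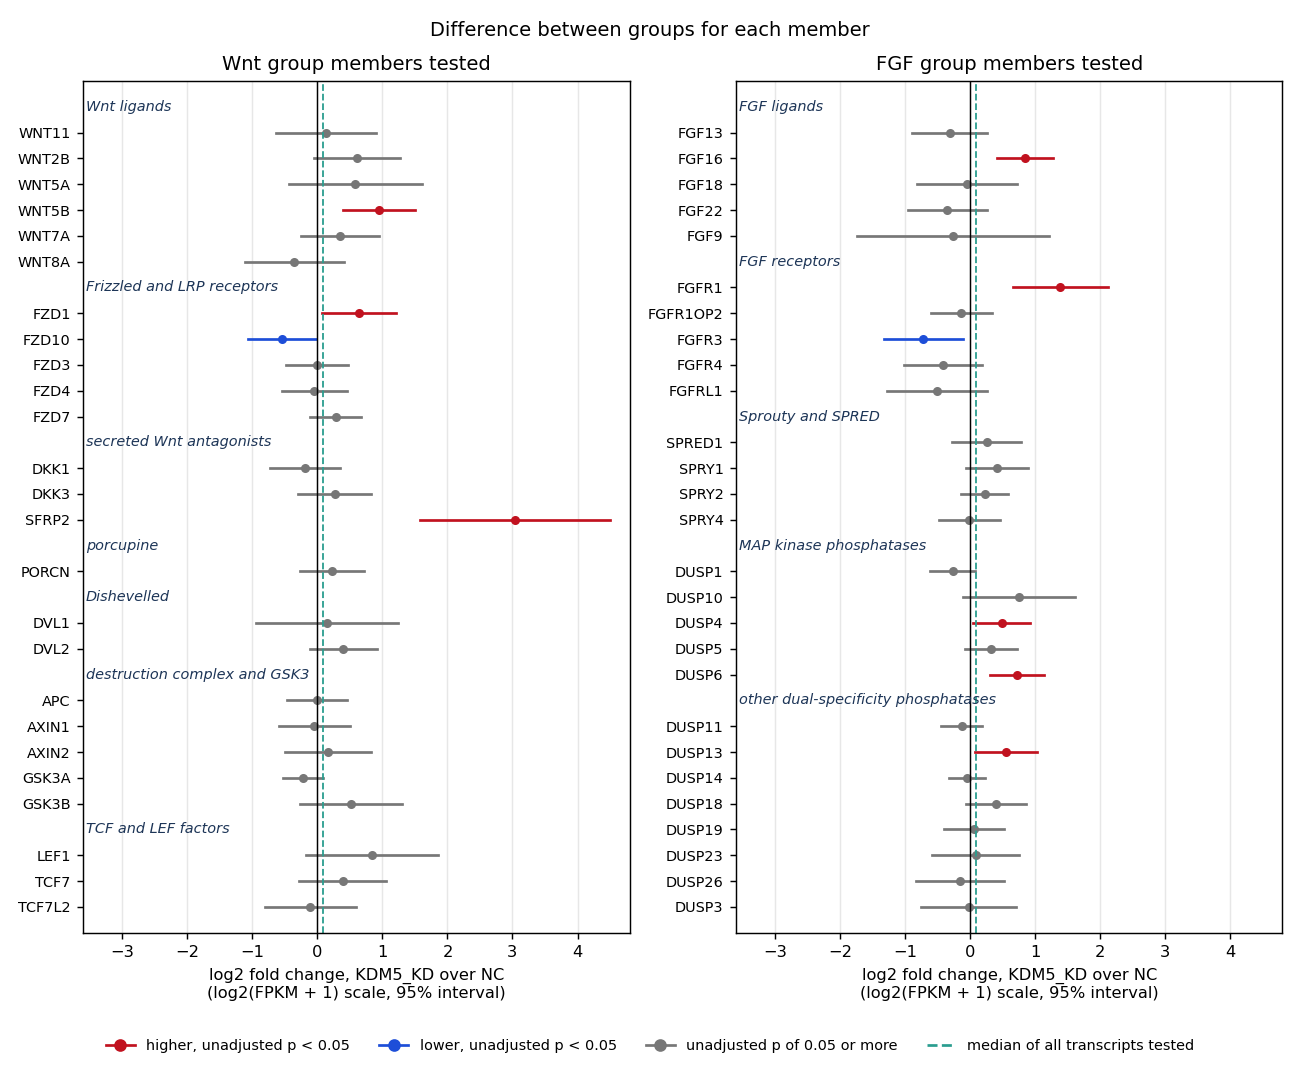
Log2 fold change (KDM5_KD over NC, log2(FPKM + 1) scale) of each member tested, with its limma 95% interval, grouped by role. Red and blue mark an unadjusted limma p under 0.05 with higher or lower knockdown values, and the dashed line is the median of all transcripts tested, 0.09. The interval of SFRP2, 1.58 to 4.49, lies farthest from 0.

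Feedback inhibitors of the ERK cascade followed. SPRY2, a Sprouty gene, was at 14.2 and 14.5 FPKM in NC versus 16.4 and 17.4 FPKM in KDM5_KD (log2 fold change 0.22, limma adjusted p = 0.490). SPRY1 was at 4.16 and 4.30 FPKM in NC versus 6.56 and 5.40 FPKM in KDM5_KD (log2 fold change 0.41, limma adjusted p = 0.345). Neither overlapped between groups. SPRY4 varied little, between 3.69 and 3.99 FPKM over the libraries, with a 95% interval of the log2 fold change from -0.48 to 0.45. SPRED1, a relative of Sprouty that binds neurofibromin, overlapped at 3.46 to 5.35 FPKM.

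The members grouped here as MAP kinase phosphatases and tested were DUSP1, DUSP4, DUSP5, DUSP6 and DUSP10. None of these 5 overlapped between groups. Of them, 4 lay above NC and 1, DUSP1, below, where 35.1% and 15.6% of all transcripts did. The grouping sets these 5 apart from the other dual-specificity phosphatases described below, of which 4 overlapped. DUSP6, the ERK-specific phosphatase that FGF signalling commonly induces, was at 7.74 and 6.75 FPKM in NC versus 12.2 and 13.0 FPKM in KDM5_KD. The group means were 7.25 ± 0.700 and 12.6 ± 0.541 FPKM (SD, n = 2), a ratio of 1.74, and the log2 fold change was 0.72 (standard error 0.171, unadjusted limma p of 0.00534, limma adjusted p = 0.139). Replicates lay close in both groups. DUSP4, a nuclear phosphatase of the same class, was at 5.68 and 6.33 FPKM in NC versus 8.39 and 9.20 FPKM in KDM5_KD (log2 fold change 0.48, standard error 0.179, unadjusted limma p of 0.0353, or 0.161 without KDM5_KD replicate 2, limma adjusted p = 0.253). DUSP5 was at 9.26 and 10.1 FPKM in NC versus 11.8 and 13.0 FPKM in KDM5_KD (log2 fold change 0.32, limma adjusted p = 0.378). DUSP10, which prefers the stress kinases p38 and JNK, was separated by almost nothing, since NC replicate 1 and KDM5_KD replicate 1 were both at 5.28 FPKM. The other libraries were at 2.80 FPKM (NC replicate 2) and 9.68 FPKM (KDM5_KD replicate 2). DUSP1 had a log2 fold change of -0.27 (standard error 0.143, limma adjusted p = 0.385).

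Of the 8 other dual-specificity phosphatases tested, 2 lay above, 2 below and 4 overlapped (all transcripts: 35.1% above and 15.6% below). DUSP13 was at 1.37 and 1.26 FPKM in NC versus 2.39 and 2.38 FPKM in KDM5_KD (log2 fold change 0.55, standard error 0.197, unadjusted limma p of 0.0312, or 0.112 without KDM5_KD replicate 2, limma adjusted p = 0.243). DUSP18 was at 5.28 and 6.16 FPKM in NC versus 8.33 and 7.38 FPKM in KDM5_KD, also without overlap. DUSP14 and DUSP11, the 2 that lay below, differed by little. DUSP14 was at 58.7 and 57.4 FPKM in NC versus 55.0 and 56.6 FPKM in KDM5_KD, with a log2 fold change of -0.06 and a 95% interval from -0.33 to 0.22. DUSP11, an RNA phosphatase, was at 26.1 and 25.1 FPKM in NC versus 23.4 and 23.0 FPKM in KDM5_KD. DUSP3, DUSP19, DUSP23 and DUSP26 overlapped, with log2 fold changes between -0.16 and 0.08.

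Below the filter were 28 rows, with a highest value of 2.10 FPKM in any library, and no test was made of them. FGF4, FGF6, WNT6 and DUSP29 were listed at 0 in all libraries. DKKL1, a DKK relative expressed in germ cells, had the highest mean of the rows outside the filter (0.909 FPKM, against 1.06 FPKM for WNT5B just inside). It was at 0.0733 and 0.150 FPKM in NC versus 1.31 and 2.10 FPKM in KDM5_KD, so the knockdown libraries were higher, by a ratio of means of 15.3. FGF7, a ligand made by stromal cells, was listed at 0.0655 and 0 FPKM in NC versus 0.558 and 0.342 FPKM in KDM5_KD. FGF2 was at 0.545 and 0.370 FPKM in NC versus 0.808 and 1.20 FPKM in KDM5_KD, and FGF12, another FGF homologous factor, was at 0.709 and 0.242 FPKM in NC versus 0.995 and 1.45 FPKM in KDM5_KD. WNT1, WNT16 and FGF20 likewise lay above NC in both knockdown libraries, with WNT16 highest at 0.678 FPKM. Both knockdown libraries were lower for DUSP2 (0.395 and 0.385 FPKM in NC, 0.144 and 0.147 FPKM in KDM5_KD), FGF11 and SFRP5. The others overlapped, among them WNT2, WNT3, SFRP1, SFRP4, DKK2, FGF1, FGF5, FGF8, FGF10, FGF14, DUSP9 and DUSP21. Without the filter, 25 of all 80 member rows lay above NC and 11 below. Of all 14517 rows, 29.2% lay above and 11.8% below.

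Other genes of the pathways were taken from lists, with no test of a list as a whole. Of 67 other Wnt pathway genes, 43 had a row and 39 were tested. None passed a limma adjusted p of 0.05, while 4 were higher and 4 lower at an unadjusted limma p under 0.05 (all transcripts: 14.3% and 3.12%), and 13 lay above and 6 below without overlap (all transcripts: 35.1% and 15.6%). Their median log2 fold change was 0.07. TLE5, a Groucho-related corepressor that lacks the repeats of its relatives, was at 2.69 and 1.14 FPKM in NC versus 7.39 and 7.33 FPKM in KDM5_KD (log2 fold change 1.57, limma adjusted p = 0.107). ROR2, a receptor for WNT5A, was at 1.14 and 0.217 FPKM in NC versus 2.41 and 2.90 FPKM in KDM5_KD (log2 fold change 1.18, limma adjusted p = 0.159). WLS, the carrier that brings Wnt proteins to the cell surface, was at 6.72 and 4.24 FPKM in NC versus 8.46 and 11.3 FPKM in KDM5_KD (log2 fold change 0.76, limma adjusted p = 0.225). In these 3 genes the knockdown libraries were higher and NC replicate 2 was lowest, and ROR2 reached the filter only through the knockdown group. Without NC replicate 1 the limma adjusted p of TLE5 and ROR2 was 0.0178 and 0.0347, and without any other library it was 0.165 to 0.396 for TLE5 and 0.303 to 0.562 for ROR2. On the lower side, RSPO2, which encodes an R-spondin that strengthens Wnt signalling, was at 27.6 and 32.6 FPKM in NC versus 21.2 and 21.9 FPKM in KDM5_KD (log2 fold change -0.46, limma adjusted p = 0.203).

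Among 50 other genes of the FGF and ERK pathway, 36 had rows and 32 rows were tested. Again none passed a limma adjusted p of 0.05, with 5 higher and 1 lower at an unadjusted limma p under 0.05, and 17 lay above and 4 below without overlap. Of all transcripts, 14.3% and 3.12% were higher and lower at that p, and 35.1% and 15.6% lay above and below. The median log2 fold change was 0.21, and NC replicate 1 was above NC replicate 2 in 16 of the 17, against 66.3% of all transcripts that lay above. SDC1, a heparan sulfate proteoglycan of the cell surface, was at 0.717 and 0.642 FPKM in NC versus 4.37 and 3.13 FPKM in KDM5_KD (log2 fold change 1.49, limma adjusted p = 0.0909). SDC1 and IL17RD, both among the 17, reached the filter only through the knockdown group. GPC4, a glypican, was at 14.1 and 10.2 FPKM in NC versus 21.7 and 23.5 FPKM in KDM5_KD (log2 fold change 0.86, limma adjusted p = 0.131). Over the alternative settings its log2 fold change was between 0.64 and 1.07. ELK3, an ETS factor phosphorylated by ERK, had a log2 fold change of 0.66 (limma adjusted p = 0.195).

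Genes commonly used as readouts of the pathways were compared last. Of 16 Wnt target genes tested, 5 of them members, 6 lay above and 1 below (all transcripts: 35.1% and 15.6%), and none passed a limma adjusted p of 0.05, with 5 at an unadjusted limma p under 0.05 (all transcripts: 17.5%). Their median log2 fold change was 0.29. CD44, MSX2 and CCND1 had the largest values, at 1.24, 1.12 and 0.99 (limma adjusted p = 0.0950, 0.106 and 0.196), and CD44 was also on the list of cumulus and granulosa markers. LGR5, a Wnt target and R-spondin receptor, was lower, at 13.2 and 11.1 FPKM in NC versus 7.47 and 8.21 FPKM in KDM5_KD (log2 fold change -0.57, limma adjusted p = 0.198). Of 20 FGF and ERK target genes tested, 7 of them members, 14 lay above and 1 below, where 35.1% and 15.6% of all transcripts did. Their median log2 fold change was 0.39, 8 had an unadjusted limma p under 0.05 (all transcripts: 17.5%) and none passed after adjustment. Leaving the members out, 9 of 13 lay above and 1 below, with a median of 0.42. IL17RD, among the 9, reached the filter only through the knockdown group, with an NC mean of 0.968 FPKM. PHLDA1 was at 7.34 and 3.22 FPKM in NC versus 11.7 and 15.8 FPKM in KDM5_KD (log2 fold change 1.30, limma adjusted p = 0.163), and SPSB1 had a log2 fold change of 1.16 (limma adjusted p = 0.141). Over the alternative settings the log2 fold change was between 0.81 and 1.79 for PHLDA1 and between 0.82 and 1.66 for SPSB1. Both were lowest without NC replicate 2. NC replicate 1 was above NC replicate 2 in 7 of the 9 target genes that lay above and are not members, where the share among all transcripts that lay above was 66.3%. MYC, a target shared by both pathways, was at 35.0 and 31.4 FPKM in NC versus 32.0 and 30.4 FPKM in KDM5_KD, and its groups overlapped.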

How the data were processed

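The authors deposited FPKM values for 14517 RefSeq transcript accessions in 4 columns, 1 per library, as its name and values show. Per the submitters' processing notes, Trimmomatic, HISAT2, featureCounts and Cufflinks were used. The program behind the FPKM, the build and the annotation version are not given in the sources used here, so no positions are printed. Values reach down to 4.83e-141, so they are estimates, depth in reads is unknown, and a listed 0 may be a failed estimate. Oligo(dT) beads selected the messenger RNA and PCR amplified the libraries, per the labels' protocols, and strand-specific counting is not mentioned, so overlapping genes and close copies may share reads.

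Symbols came from a RefSeq gene table of assembly ARS-UCD2.0, matched on accession without version (14295 of 14517). Groups and replicate numbers came from the titles. Transcripts with a mean of at least 1 FPKM (8970) were fitted as log2(FPKM + 1) using R 4.3.3 and limma 3.58.1 (lmFit, eBayes with a trend, no covariates, Benjamini-Hochberg adjustment). Fold changes on this scale understate those of low transcripts. The fitting code was also run on data simulated from limma's own variance model with independent errors. Such a run cannot show how the tests perform on these libraries. Ratios of means are on the FPKM scale. Tables used pandas 2.3.3 and numpy 2.4.6 in Python 3.11.15, and plots matplotlib 3.10.9.

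The members and lists were chosen with earlier results of these data known. Named genes were members with an unadjusted p under 0.05 and no overlap (at most 20), the highest member of each role, the siRNA targets and up to 3 genes per pathway or target list. Other members are given to account for all of them, and LGR5, RSPO2, MYC, KDM6A and the markers were added after their values were seen. Alternatives were a pseudocount of 0.1, no filter, a filter at 5 FPKM, median-ratio scaling, quantile normalization, eBayes without a trend or robust, the replicate number as a block, and leaving out each library.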

Additional observations from a re-analysis of the deposited data

How the results depend on the processing

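No member passed a limma adjusted p of 0.05 in the 8 alternatives that kept all libraries. Leaving out 1 library at a time gave 0 to 2 members called higher (SFRP2 and FGFR1 without NC replicate 1, SFRP2 without NC replicate 2), 12 to 16 below and 20 to 28 above without overlap (25.4% to 28.9% and 45.0% to 50.0% of all transcripts, since a lone library overlaps less), 6 to 13 at an unadjusted p under 0.05, medians from 0.045 to 0.23, and medians relative to all transcripts from -0.025 to 0.14. Members above and below numbered 10 and 16 with quantile normalization, and 13 lay below with median-ratio scaling. With a filter at 5 FPKM, 4 members had an unadjusted p under 0.05, fewer members being tested. The median of the members was 0.065 without a filter, 0.019 with median-ratio scaling and -0.076 with quantile normalization. Relative to all transcripts it was 0.14 with the filter at 5 FPKM and -0.031 with quantile normalization.

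Over all transcripts, 17 were called higher and 8 lower. Those higher numbered 11 with the filter at 5 FPKM, 6 without a trend and 37 with robust eBayes, and 1 was lower without a filter. Blocking on the replicate number left 8 higher and 4 lower. Libraries of the same number had deviations from their group means that correlated at 0.229, which with 2 pairs does not establish a pairing, and the block made no call among the members. Leaving out 1 library gave 3 to 323 higher, the most without NC replicate 1, and 3 to 17 lower.

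Of 397 values of named genes under alternatives, 375 kept direction and side of the threshold, 9 passed it, 6 lost it (all KDM5A) and 7 reversed. Leaving out 1 library moved WNT5A between -0.057 and 1.22, DKK1 between -0.41 and 0.038 (0.031 without NC replicate 2), TCF7L2 between -0.50 and 0.28 (0.019 without KDM5_KD replicate 1) and FGFR1OP2 between -0.31 and 0.041. PORCN was at -0.037 with quantile normalization. The causes were not tested. With quantile normalization, 8 of the 52 members changed sign, all with an absolute log2 fold change under 0.27 before. Without read counts, no detection limit can be given for the 28 rows that were not tested.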
